A study of Mus musculus with 16 samples.

Results

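The BCL2 family decides whether mitochondria stay intact in a cell under stress, and the mRNA of 10 of its genes was followed here in activated macrophages: the survival genes Bcl2, Bcl2l1, Mcl1 and Bcl2a1b, the effector genes Bax and Bak1, and the BH3-only genes Bcl2l11, Bid, Pmaip1 and Bbc3. They were taken by symbol from a table of 47069 genes, and the deposited columns of each replicate were summed. All 10 passed the filter on low counts and were among the 13211 genes tested.

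The cells were macrophages (BMMs) grown from the bone marrow of C57BL/6 mice aged 8 to 10 weeks, cultured in L929-conditioned medium and primed overnight with IFNγ at 10 ng/mL. Both groups were activated for 1 hr with Salmonella LPS at 100 ng/mL together with ovalbumin (OVA) opsonized with rabbit IgG, an immune complex (IC). The GSI group received DAPT at 25 µM, which blocks γ-secretase, the protease that releases the intracellular domain of Notch receptors, and the control group received the vehicle DMSO at 0.01%. The comparison asked which transcripts of LPS/IC-activated macrophages depend on this protease. It cannot separate Notch from the other substrates of γ-secretase. By the study's methods, DAPT or DMSO was given overnight before activation. Changes that arose before activation therefore cannot be told apart from later ones.

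In healthy cells the survival proteins BCL2, BCL-XL (from Bcl2l1), MCL1 and A1 (from the Bcl2a1 genes) hold the effectors BAX and BAK in check. BH3-only proteins such as BIM (Bcl2l11), BID, NOXA (Pmaip1) and PUMA (Bbc3) report damage or loss of growth signals by occupying the survival proteins or by activating BAX and BAK directly. Free BAX and BAK open the outer mitochondrial membrane, cytochrome c leaves, and caspases are switched on. In macrophages, A1 and BCL-XL are known as products of NF-κB target genes, MCL1 is a short-lived protein that must be made continuously, and BIM is a known brake on the life span of blood cells.

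There were 16 deposited samples, 4 runs for each of 2 replicates in both groups, and summing gave DMSO libraries of 42694655 and 56932059 counts and GSI libraries of 48483661 and 49511733. Runs of a replicate differed about as much as sampling allows, with a chi-square per degree of freedom of 1.01 to 1.03. The labels do not say that replicates came from separate cultures or mice, so the p-values measure the spread between these libraries, which may be technical. Macrophage markers were high in every library, with 8 of 8 tested and a summed level of 12278 and 12484 CPM in DMSO and 9489 and 10414 CPM in GSI. CPM is the usual depth-scaled count, taken over the tested genes after TMM scaling of the libraries. Of these 8 markers, 6 were lower and 1 (Mertk) was higher with GSI at an FDR under 0.05. Over all tested genes 21.9% were lower and 19% were higher, shares that also stand beside the marker counts below. Markers of other lineages were low, against a floor of 3 counts or 0.0529 to 0.0697 CPM, for B cells (0.344 to 0.538 CPM summed over 6 markers), neutrophils (0.697 to 1.43 CPM over 8) and fibroblasts (0.0621 to 0.162 CPM over 5). Elane, Mpo, Ly6g, Pax5 and Col3a1 had at most 3 counts in each library. T cell markers summed to 1.498 to 1.72 CPM in DMSO and 2.83 to 3.79 CPM in GSI, with Cd3e, Cd3d, Cd3g and Cd8a at most at 2 counts. Most of this sum was Lck, which rose from 51 and 58 counts in DMSO to 131 and 105 counts in GSI (log2 fold change 1.14, FDR = 0.000147). Dendritic cell markers summed to 179 and 186 CPM in DMSO and 113 and 115 CPM in GSI, nearly all of it Clec9a, with Flt3 at most at 2 counts and Siglech at 0. Of the 3 tested, 2 were lower with GSI, Clec9a (181 and 174 CPM in DMSO, 109 and 111 CPM in GSI, log2 fold change -0.69, FDR = 1.20e-07) and Xcr1 (5.02 and 4.64 CPM in DMSO, 3.77 and 3.44 CPM in GSI, log2 fold change -0.42, FDR = 0.0175). The Xcr1 call was lost in DESeq2 (adjusted p = 0.092), without DMSO replicate 1 (-0.36, FDR = 0.0992) and without GSI replicate 2 (-0.35, FDR = 0.0842). The part of these marker differences in the values of the BCL2 family was not tested. Less RNA per cell and fewer cells of a kind cannot be told apart in such bulk libraries. The classical Notch targets did not serve as a readout of the inhibitor in these libraries, with Hes1 at 5, 2, 1 and 5 counts and Hey1 at 2, 1, 3 and 5 counts in DMSO replicates 1 and 2 and GSI replicates 1 and 2. In other assays the study reported loss of cleaved Notch1 protein and less Hes1 mRNA by qPCR with GSI.

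With GSI, 3 of the 10 genes were lower (Bcl2l11, Bcl2l1 and Mcl1), 3 were higher (Bid, Bcl2 and Bbc3) and 4 did not pass the test (Bcl2a1b, Bax, Bak1 and Pmaip1), at an FDR under 0.05 in edgeR's quasi-likelihood test adjusted over all tested genes. GSI moved much of the transcriptome. In the same test 21.9% of all tested genes were lower and 19% were higher, 40.8% in either direction. The 6 calls among 10 genes are therefore read gene by gene, not as a property of the family. None of the 10 passed the study's stricter rule in edgeR or in DESeq2, which also asks for an absolute log2 fold change above 1.5 and which 2.91% of the tested genes passed. The study's own list at this fold change was shorter than the one obtained here, and the reason was not tested. The DMSO and GSI libraries did not overlap for 8 of the 10 genes, against 70.6% of the tested genes, and overlapped for Bcl2a1b and Bax. The median log2 fold change was 0.12 for the 10 genes and 0.01 for all tested genes, and the median of its absolute size was 0.29 and 0.24.

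**Figure D1:**
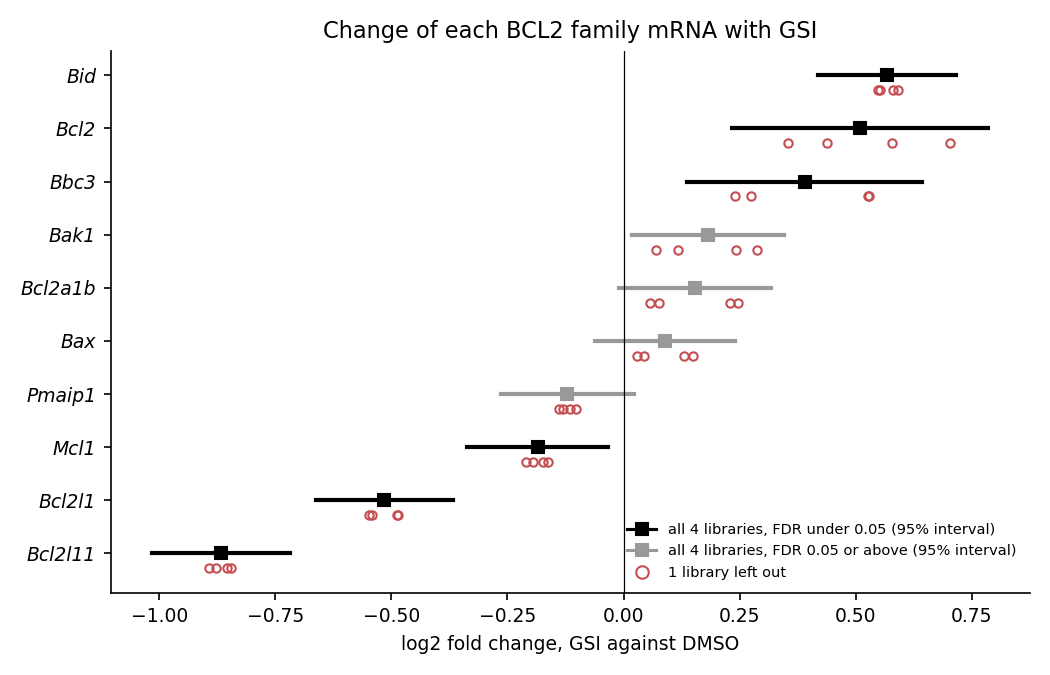
Log2 fold change of each BCL2 family gene, GSI against DMSO (horizontal axis), with its 95% interval. Filled squares are the estimates from all 4 libraries, black where the FDR was under 0.05 and gray otherwise, and open circles are the estimates with 1 library left out. Bcl2l11 lies farthest to the left at -0.87 and Bid farthest to the right at 0.57, and the circles of Bcl2l11, Bcl2l1 and Bid stay close to their squares, whereas those of Bak1, Bcl2a1b, Bbc3 and Bcl2 are spread.

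Bcl2l11 changed most. Its gene lies at chr2:128126038-128162547 on the plus strand (GRCm38) and encodes BIM, a BH3-only protein that binds all the survival proteins. DMSO replicates 1 and 2 had 25434 and 32455 counts, or 591 and 572 CPM, and GSI replicates 1 and 2 had 15546 and 15619 counts, or 322 and 316 CPM. Both GSI libraries were far below both DMSO libraries, and the replicates of a group lay close together. The DMSO mean was 582 ± 13.5 CPM and the GSI mean 319 ± 3.76 CPM (SD, n = 2 each). That is 45.2% lower with GSI, a log2 fold change of -0.87 (SE 0.0709, 95% interval -1.01 to -0.72, FDR = 6.57e-09). With any 1 library left out it was -0.89 to -0.84. The single runs are parts of these sums and no further evidence. Not scaled for depth, they held 6316 to 6408 and 7948 to 8264 counts in the DMSO replicates. In the GSI replicates they held 3808 to 3966 and 3804 to 4068 counts. No exon of Bcl2l11 overlapped another annotated gene, and none of its 75-base stretches recurred in transcripts of another gene.

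Bid, on the minus strand at chr6:120891930-120916853, went the other way. BID is the BH3-only protein that death receptors activate through cleavage by caspase-8, after which it acts on mitochondria. Its level was 51.5 and 52.6 CPM in DMSO (2217 and 2985 counts) and 78.3 and 76.1 CPM in GSI (3786 and 3757 counts). Both GSI libraries exceeded both DMSO libraries, and the gap between groups was many times that between replicates. The mean rose from 52.1 ± 0.767 to 77.2 ± 1.59 CPM (SD, n = 2 each). This is 48.2% more (log2 fold change 0.57, SE 0.0710, 95% interval 0.42 to 0.72, FDR = 2.07e-06), and 0.55 to 0.59 with 1 library left out. Bid shares 628 exon bases with Bcl2l13 on the opposite strand. Bcl2l13 itself did not pass the test, with 1325 and 1830 counts in DMSO and 1390 and 1416 counts in GSI (log2 fold change -0.14, FDR = 0.17). The libraries were strand-specific, but the strand setting of the counting is not given in the sources used here.

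Bbc3 (chr7:16308393-16318205, plus strand) encodes PUMA, a BH3-only protein known as a target of p53. It was scarce, at 6.46 and 7.70 CPM in DMSO (278 and 437 counts) and 10.3 and 8.40 CPM in GSI (496 and 415 counts). The groups did not overlap, but the higher DMSO library and the lower GSI library were close. Its mean rose by 31.1% (log2 fold change 0.39, SE 0.121, 95% interval 0.14 to 0.64, FDR = 0.014). The call rested on single libraries: without DMSO replicate 1 the log2 fold change was 0.27 (FDR = 0.125), and without GSI replicate 1 it was 0.24 (FDR = 0.153). DESeq2 gave 0.39 with an adjusted p of 0.0573.

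Pmaip1, the gene of NOXA, did not pass. NOXA is a BH3-only protein that binds mainly MCL1 and A1. The values were 125.04 and 124 CPM in DMSO and 116 and 113 CPM in GSI, so that both GSI libraries were slightly lower. The log2 fold change was -0.12 (SE 0.0686, 95% interval -0.26 to 0.02, FDR = 0.168), an interval that does not reach the size of the change in Bcl2l11.

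The upstream sequences of the genes with the lowest FDR (Bcl2l11, Bid and Bcl2l1) and of Bbc3 show which short motifs stand next to genes that moved in opposite directions. RefSeq promoters on GRCm38.p6 were matched for 9 of the 10 genes, with 14 windows from 250 bases before to 50 bases after a start site. They were searched on both strands for the RBPJ core TGGGAA, the CHOP-ATF4 site TGATGNAA, the kappaB consensus and a p53 half-site, which occur in 25.6%, 3.97%, 8.46% and 8.36% of 32851 promoter windows. Each sequence below runs 5′ to 3′ on the strand of the gene, overlaps no annotated exon and ends at the base before the start site, except that of Bid, which ends at the base before an annotated exon that begins upstream of the RefSeq start site. Capitals mark a kappaB match.
Bcl2l11, chr2:128125788-128126037, plus strand: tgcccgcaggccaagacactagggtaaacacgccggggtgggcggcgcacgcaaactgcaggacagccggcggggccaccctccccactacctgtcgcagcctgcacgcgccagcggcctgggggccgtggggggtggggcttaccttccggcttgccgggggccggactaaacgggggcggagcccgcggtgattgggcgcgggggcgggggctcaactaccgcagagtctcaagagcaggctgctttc
Bid, chr6:120916854-120917074, minus strand: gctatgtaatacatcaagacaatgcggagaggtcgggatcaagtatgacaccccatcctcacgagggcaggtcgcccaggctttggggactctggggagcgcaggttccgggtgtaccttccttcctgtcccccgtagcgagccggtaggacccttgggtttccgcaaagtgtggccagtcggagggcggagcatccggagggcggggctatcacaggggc
Bcl2l1, chr2:152831729-152831978, minus strand: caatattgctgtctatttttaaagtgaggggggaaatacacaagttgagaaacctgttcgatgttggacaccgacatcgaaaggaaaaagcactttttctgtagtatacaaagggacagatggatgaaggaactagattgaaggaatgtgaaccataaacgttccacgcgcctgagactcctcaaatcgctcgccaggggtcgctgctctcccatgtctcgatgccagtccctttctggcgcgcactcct
Bbc3, chr7:16309333-16309582, plus strand: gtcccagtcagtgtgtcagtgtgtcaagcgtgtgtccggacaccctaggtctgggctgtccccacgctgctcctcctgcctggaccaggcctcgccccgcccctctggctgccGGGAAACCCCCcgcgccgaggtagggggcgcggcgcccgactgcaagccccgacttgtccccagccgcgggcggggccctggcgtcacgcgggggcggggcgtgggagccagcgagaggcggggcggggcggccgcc
Bcl2l11, Bid and Bcl2l1 show no match of the 4 motifs in these stretches. Bbc3 has overlapping kappaB matches on both strands, from -137 to -127 relative to the start site. GC content was 72% for Bcl2l11, 62.4% for Bid, 47.6% for Bcl2l1 and 76.4% for Bbc3, with 24, 14, 12 and 27 CG dinucleotides, and the median over all promoters, before their start sites, was 52.4%. Elsewhere in the family, the RBPJ core stood in 2 of 14 windows (Bax and Bcl2a1b), the kappaB consensus also in the window of another Bcl2l1 start site, the p53 half-site in Bax and the CHOP-ATF4 site in Bcl2a1b. A match is a string of letters and was not tested as a binding site.

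Among the survival genes, Bcl2l1 fell clearly. It encodes BCL-XL and lies at chr2:152780668-152831728 on the minus strand. DMSO libraries had 99.3 and 104 CPM (4271 and 5890 counts) and GSI libraries 72.4 and 69.8 CPM (3499 and 3446 counts). The groups did not overlap, and each pair of replicates was tight. From 102 ± 3.21 to 71.1 ± 1.84 CPM (SD, n = 2 each), the level dropped by 30.01% (log2 fold change -0.51, SE 0.0705, 95% interval -0.66 to -0.37, FDR = 6.71e-06), and with 1 library left out the log2 fold change was -0.55 to -0.48.

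Mcl1 (chr3:95658788-95663176, plus strand) was the most abundant of the 10. It had 1254 and 1215 CPM in DMSO (53943 and 68917 counts) and 1077 and 1094 CPM in GSI (52082 and 54018 counts). Both GSI values were below both DMSO values. The decrease was small, 12.04%, and its call was marginal: the log2 fold change was -0.19 (SE 0.0724, 95% interval -0.34 to -0.03, FDR = 0.0469). Leaving out DMSO replicate 1 or 2 or GSI replicate 1 or 2 gave -0.16, -0.21, -0.17 and -0.19, with an FDR of 0.233, 0.105, 0.109 and 0.0701, so the call was lost each time.

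Bcl2 itself (chr1:106538178-106714274, minus strand) was rare, at 4.07 and 5.18 CPM in DMSO (175 and 294 counts) and 6.95 and 6.32 CPM in GSI (336 and 312 counts). GSI libraries were above DMSO libraries without overlap. The mean rose by 42.3% (log2 fold change 0.51, SE 0.132, 95% interval 0.23 to 0.78, FDR = 0.0042). Its standard error was the widest of the 10 genes, and without DMSO replicate 1, the lowest library, the log2 fold change was 0.35 (FDR = 0.0683).

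Bcl2a1b (chr9:89199209-89207827, plus strand) encodes a form of A1 and has near-identical copies, Bcl2a1a at chr9:88956900-88962419 and Bcl2a1d at chr9:88723285-88731914. The coding sequences of all of them are 519 bases long. Bcl2a1b differs from Bcl2a1a at 11 bases (97.9% identical) and from Bcl2a1d at 6 (98.8% identical), and only 12 positions differ among the 3. The first 90 coding bases in GENCODE M21 show how short the distinguishing parts are, with the positions that differ in capitals.
Bcl2a1a: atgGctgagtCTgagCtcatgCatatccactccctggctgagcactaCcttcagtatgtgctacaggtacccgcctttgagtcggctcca
Bcl2a1b: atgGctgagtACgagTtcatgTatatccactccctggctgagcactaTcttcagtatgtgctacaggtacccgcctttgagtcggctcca
Bcl2a1d: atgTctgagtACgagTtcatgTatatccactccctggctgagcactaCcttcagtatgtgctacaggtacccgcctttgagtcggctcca
Of the 75-base stretches of Bcl2a1b transcripts, 68.4% recur exactly in other genes. For Bcl2a1a and Bcl2a1d the share is 55.2% and 67.6%. Bcl2a1b also shares 401 exon bases on the same strand with the model Gm29094, which had 9 to 18 counts. How the counts divide among the copies is therefore uncertain.

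Counted as deposited, Bcl2a1b had 137 and 124 CPM in DMSO (5895 and 7009 counts) and 154 and 135 CPM in GSI (7458 and 6689 counts). The groups overlapped, since GSI replicate 2 lay below DMSO replicate 1. The log2 fold change of 0.15 (SE 0.0781, 95% interval -0.01 to 0.32) did not pass (FDR = 0.123). Without GSI replicate 2 it was 0.25 (FDR = 0.0127). Bcl2a1a was less abundant, at 11.1 and 9.50 CPM in DMSO and 17.2 and 14.6 CPM in GSI, and rose (log2 fold change 0.63, SE 0.106, FDR = 7.18e-05). Bcl2a1d rose from 62.6 and 54.4 to 69.1 and 67.6 CPM (log2 fold change 0.23, SE 0.0776, FDR = 0.0253), though without DMSO replicate 2 it had 0.12 (FDR = 0.369), without GSI replicate 1 it had 0.21 (FDR = 0.0526), and DESeq2 gave an adjusted p of 0.0533. Since the division among copies is uncertain, they were also summed to a single row. The sum was 211 and 187 CPM in DMSO and 241 and 218 CPM in GSI, without overlap, a log2 fold change of 0.20 (SE 0.0768, 95% interval 0.04 to 0.36, FDR = 0.0402). This row was fitted once, with no library left out and not in DESeq2. Reads shared by the copies may also be missing from the sum, since the counting mode is not given.

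Neither effector passed the test. BAX waits mostly in the cytosol and BAK on the outer mitochondrial membrane. Bax (chr7:45461697-45466898, minus strand) had 139 and 132 CPM in DMSO and 150.04 and 138 CPM in GSI, with overlapping groups (log2 fold change 0.09, SE 0.0719, 95% interval -0.06 to 0.24, FDR = 0.344). Bak1 (chr17:27019810-27029009, minus strand) had 171 and 157 CPM in DMSO and 199.9 and 172 CPM in GSI. GSI replicate 2 exceeded DMSO replicate 1 by about 1 CPM only, so the groups barely separated. Its log2 fold change was 0.18 (SE 0.0785, 95% interval 0.02 to 0.35), which did not pass after adjustment (FDR = 0.0714, unadjusted p = 0.0319 in edgeR's test). Without GSI replicate 2 it was 0.29 (FDR = 0.0028), and without a filter on low counts 0.19 (FDR = 0.0447). Bax shares 192 exon bases on the same strand with the model Gm45808, and Bak1 shares 437 on the opposite strand with Ggnbp1, which had 33 to 72 counts.

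**Figure D2:**
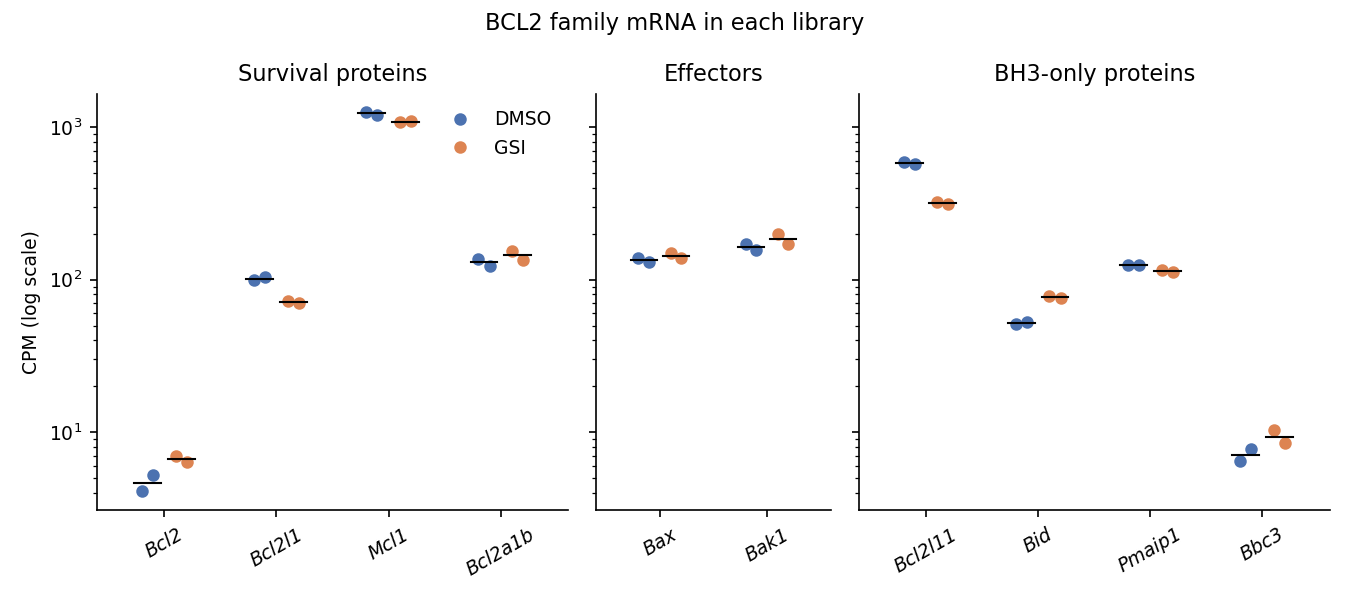
Level of each gene in each library in CPM (vertical axis, log scale), in panels for survival proteins, effectors and BH3-only proteins. Points are the 2 DMSO (blue) and 2 GSI (orange) libraries and black lines the group means. Bcl2l11 and Bcl2l1 step down and Bid steps up with GSI, while the Bax points nearly coincide.

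To compare levels between genes, counts were divided by the length of the annotated exons and scaled to a common sum (TPM). In DMSO the order of these levels was Mcl1, Bcl2a1b, Bax, Bcl2l11, Bak1, Pmaip1, Bcl2l1, Bid, Bbc3 and Bcl2. Mcl1 stood at 1159 and 1103 TPM and Bcl2 at 1.40 and 1.76 TPM, so the founding gene of the family was the rarest of the 10 in these macrophages. Bcl2l11 (233 and 221 TPM) and Bak1 (225 and 203 TPM) overlapped, and other neighbours in the order did not. In GSI the order was Mcl1, Bcl2a1b, Bax, Bak1, Pmaip1, Bcl2l11, Bid, Bcl2l1, Bbc3 and Bcl2, with no overlap between neighbours. Bcl2l11 moved from the level of Bak1 to just below Pmaip1, at 119 and 118 TPM against 126 and 124 TPM. Bid, at 45.9 and 45.99 TPM, stood below Bcl2l1 (68.4 and 70.3 TPM) in DMSO and above it in GSI, at 65.6 and 64.2 TPM against 46.9 and 45.6 TPM. The length of Bcl2a1b is short and its counts are shared with its copies, so its place is less certain. Each length covers all annotated exons of a gene, 8029 bases for Bcl2l11 and 2732 for Pmaip1, whichever transcripts were present. Overlap between libraries does not cover this error, so the order of close neighbours such as Bcl2l11 and Pmaip1 in GSI is uncertain.

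**Figure D3:**
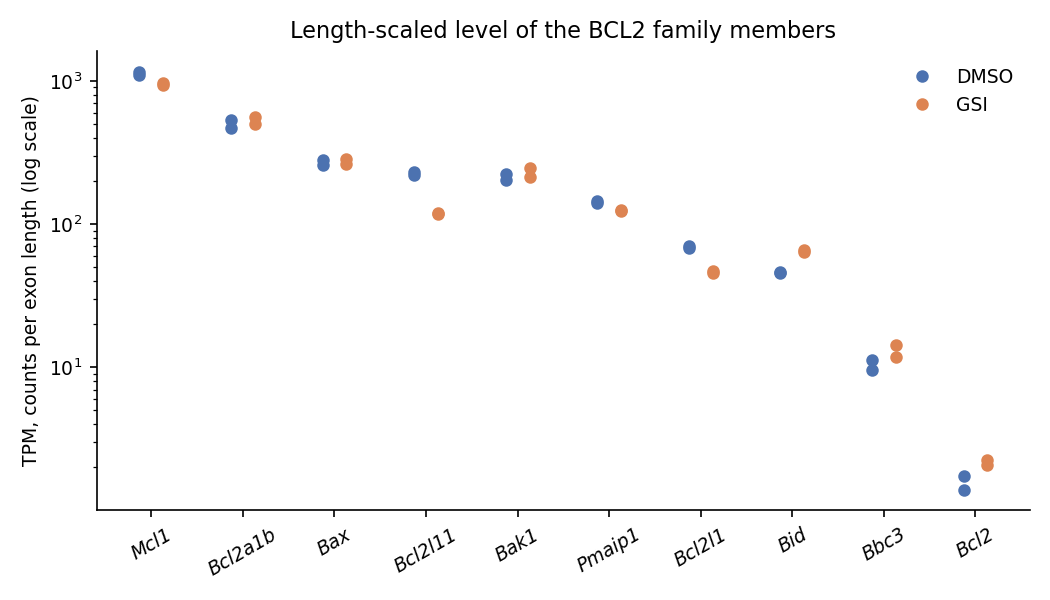
Length-scaled level of each gene in TPM (vertical axis, log scale), ordered by the DMSO mean, with the 2 DMSO (blue) and 2 GSI (orange) libraries as points. Levels span from 1.40 TPM for Bcl2 to 1159 TPM for Mcl1, and Bid and Bcl2l1 change places between the groups.

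Summed by role, the TPM of the 4 survival genes were 1759 and 1644 in DMSO and 1547 and 1503 in GSI, and those of the 4 BH3-only genes were 433 and 419 in DMSO and 325 and 318 in GSI. Both sums were lower in both GSI libraries. The effector sum was 504 and 462 in DMSO and 529.7 and 477 in GSI, with overlap. Mcl1 made up 65.9% and 67.1% of the survival sum in DMSO and 60.5% and 63.8% in GSI. The makeup of the BH3-only sum shifted more. Bcl2l11 supplied 53.8% and 52.7% of it in DMSO and 36.6% and 37.1% in GSI, and Bid supplied 10.6% and 10.97% in DMSO and 20.17% and 20.18% in GSI. The ratio of the survival sum to the BH3-only sum was 4.06 and 3.92 in DMSO and 4.76 and 4.73 in GSI. Against single partners, Bcl2l11 stood at 0.201 and 0.2005 of the TPM of Mcl1 in DMSO and at 0.127 and 0.123 in GSI, and at 3.40 and 3.15 times the TPM of Bcl2l1 in DMSO and 2.54 and 2.59 times in GSI. These sums and ratios are of mRNA, carry no test and say nothing of the amounts of protein.

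Of 16 further genes of the family, 10 were tested, 0 were lower and 4 were higher (Bcl2l14, Bcl2a1a, Bad and Bcl2a1d), with a median log2 fold change of 0.15. These counts stand against 21.9% lower and 19% higher over all tested genes, and no set test was run. At an unadjusted p under 0.05 in edgeR's test 0 were lower as well, and DESeq2 called 0 lower and 2 higher. The family member Bcl2l14 rose from 14.5 and 12.4 to 23.6 and 20.6 CPM (log2 fold change 0.72, SE 0.0975, FDR = 5.64e-06). Bad, the gene of a BH3-only protein held inactive by phosphorylation, rose from 18.9 and 19.3 to 22.5 and 22.3 CPM (log2 fold change 0.23, SE 0.0823, FDR = 0.0311), a call lost in DESeq2 (adjusted p = 0.0975) and when any 1 library was left out (FDR = 0.0667 to 0.14). Bcl2l10, Bok, Hrk and Bcl2l15 had at most 3 counts in each library, and Bik and Bcl2a1c at most 8.

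Downstream of mitochondria, 15 of 15 genes of the apoptosome and caspases were tested, of which 3 were lower and 5 were higher (median log2 fold change 0.11), against 21.9% and 19% of all tested genes. Htra2, a mitochondrial protease that counters inhibitors of caspases once released, rose from 52.6 and 50.6 to 78.8 and 77.1 CPM (log2 fold change 0.60, FDR = 1.19e-06). Endog, a mitochondrial nuclease, rose from 3.07 and 3.37 to 4.12 and 5.26 CPM (log2 fold change 0.54, FDR = 0.00647), but without GSI replicate 2 its FDR was 0.102 at a log2 fold change of 0.35.

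Of 8 genes of the inhibitor of apoptosis family, 6 were lower, 0 were higher and 2 did not pass in edgeR's test, and the median log2 fold change was -0.28. The counts were the same at an unadjusted p under 0.05 and in DESeq2, 6 lower and 0 higher. Of all tested genes 21.9% were lower and 19% higher, and the list had no set test. Birc5, whose product survivin serves mainly in chromosome segregation, fell from 14.2 and 13.9 to 6.43 and 6.36 CPM (log2 fold change -1.13, SE 0.101, FDR = 2.12e-08). Naip6 fell from 29.2 and 26.5 to 19.7 and 19.4 CPM (log2 fold change -0.51, FDR = 5.87e-05), and Naip5 from 34.2 and 35.7 to 24.8 and 28.9 CPM (log2 fold change -0.38, FDR = 0.0012). The NAIP proteins are known as sensors of bacterial flagellin and secretion systems, and their genes are close copies whose counts may be divided uncertainly.

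In the death receptor pathway, which leads to BID, 10 of 11 genes were tested, with 2 lower and 3 higher (median log2 fold change -0.00), near the 21.9% and 19% of all tested genes. Mlkl, the executor of necroptosis, rose from 106 and 93.8 to 156 and 142 CPM (log2 fold change 0.58, FDR = 4.51e-06). Tnfrsf10b, the mouse TRAIL receptor, fell from 6.30 and 5.68 to 3.37 and 3.50 CPM (log2 fold change -0.80, FDR = 6.00e-05). The adaptor Fadd rose from 6.93 and 8.65 to 10.1 and 10.3 CPM (log2 fold change 0.38, FDR = 0.0111), with an FDR of 0.188 and a log2 fold change of 0.23 without DMSO replicate 1.

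p53 and its targets, other than the BCL2 family genes above, made up a list of 16 genes, 15 of them tested. There were 9 lower, 2 higher and 4 that did not pass, against 21.9% lower and 19% higher over all tested genes, and the median log2 fold change was -0.25. Sesn1, a stress-induced regulator of growth signals, fell from 21.1 and 18.4 to 12.04 and 11.3 CPM (log2 fold change -0.75, FDR = 2.39e-06). Pidd1, a scaffold for caspase-2, fell from 3.35 and 3.40 to 1.90 and 2.19 CPM (log2 fold change -0.72, FDR = 0.0012). Trp53inp1, a p53-induced nuclear protein, fell from 54.9 and 46.3 to 32.2 and 31.0 CPM (log2 fold change -0.68, FDR = 1.86e-06). The 2 higher genes, named after their values were seen, were Plk2, a kinase, at 493 and 566 CPM in DMSO and 746 and 808 CPM in GSI (log2 fold change 0.55, FDR = 1.32e-05), and Sesn2, at 47.02 and 45.7 CPM in DMSO and 64.9 and 68.2 CPM in GSI (log2 fold change 0.52, FDR = 7.87e-06). The p53 target Bbc3 was higher and the p53 target Pmaip1 did not pass, as given above.

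The list of transcription factors known to act on BH3-only genes, with some of their target genes, had 11 genes, of which 4 were lower and 4 were higher (median log2 fold change -0.08), against 21.9% and 19% of all tested genes. The largest changes were in Chac1 and Trib3, which are not transcription factors but targets of ATF4 and CHOP. Chac1, a glutathione-degrading enzyme, rose from 1.30 and 1.80 to 7.55 and 6.76 CPM (log2 fold change 2.18, SE 0.158, FDR = 1.24e-09), and the pseudokinase Trib3 from 7.72 and 9.91 to 34.1 and 41.7 CPM (log2 fold change 2.09, SE 0.113, FDR = 2.24e-11). Myc, a driver of cell growth, fell from 44.6 and 50.02 to 18.2 and 18.4 CPM (log2 fold change -1.37, SE 0.0824, FDR = 1.09e-10). Chosen after their values were seen, Ddit3, the gene of CHOP, rose from 35.03 and 34.1 to 85.4 and 72.1 CPM (log2 fold change 1.19, FDR = 7.36e-10). FOXO factors are known activators of Bcl2l11, and the list held 3, also chosen after their values were seen. Foxo1 had 8.18 and 6.93 CPM in DMSO and 6.64 and 5.20 CPM in GSI and was lower (log2 fold change -0.35, FDR = 0.0396), but not without DMSO replicate 1 (-0.23, FDR = 0.254), without GSI replicate 2 (-0.18, FDR = 0.336) or in DESeq2 (adjusted p = 0.121). Foxo4 had 11.99 and 12.4 CPM in DMSO and 10.3 and 10.3 CPM in GSI and was lower (log2 fold change -0.25, FDR = 0.0464), a call lost without any 1 library (-0.27 to -0.22, FDR = 0.1 to 0.192), without a filter on low counts (FDR = 0.0799) and in DESeq2 (adjusted p = 0.139). Foxo3 had 30.6 and 29.1 CPM in DMSO and 29.0 and 27.4 CPM in GSI and did not pass (log2 fold change -0.08, FDR = 0.435). Whether these factors bear on the BCL2 family values was not tested.

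MCL1 protein is set largely by its turnover. Of 8 genes of the ubiquitin and kinase control of MCL1, 3 were lower and 2 were higher (median log2 fold change 0.01), against 21.9% and 19% of all tested genes. Usp9x, which removes ubiquitin from MCL1, fell from 121 and 115 to 75.03 and 74.0 CPM (log2 fold change -0.66, FDR = 2.23e-07). Huwe1, a ubiquitin ligase for MCL1, fell from 154 and 149.8 to 116 and 109 CPM (log2 fold change -0.44, FDR = 4.51e-05). The gene of the mitochondrial ubiquitin ligase March5 rose from 228 and 227 to 273 and 287 CPM (log2 fold change 0.30, FDR = 0.00157). Genes with opposite effects on MCL1 thus fell together, and no protein was measured here.

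**Figure D4:**
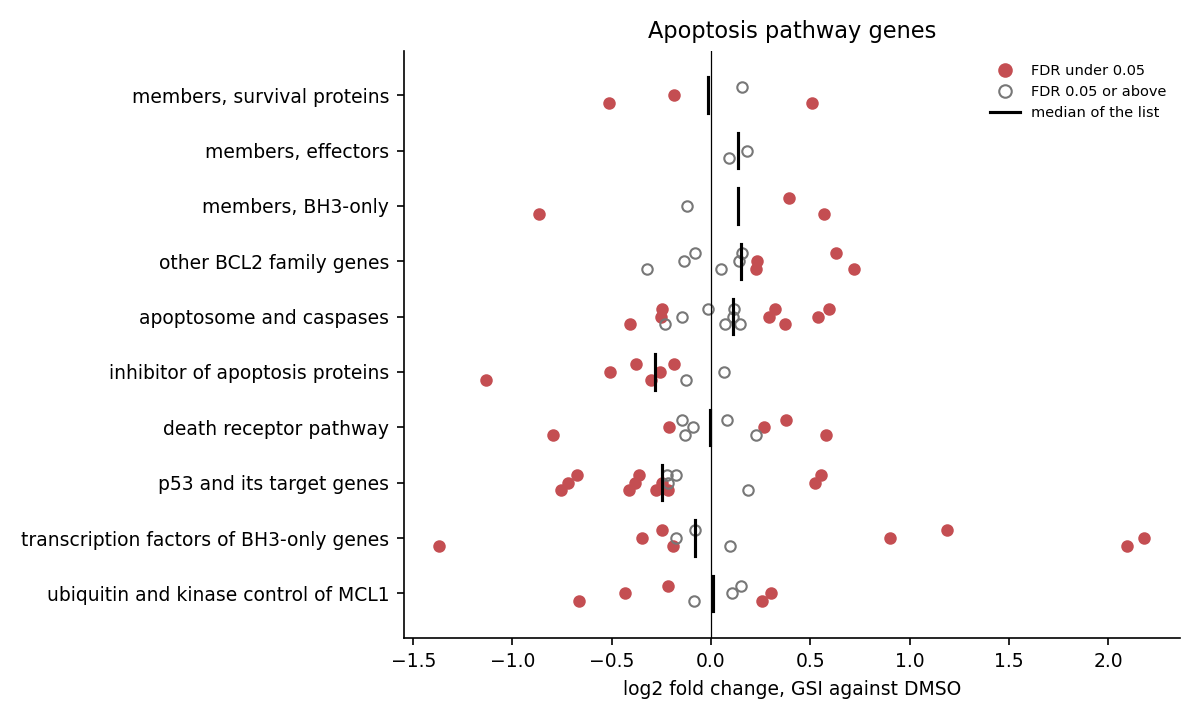
Log2 fold change, GSI against DMSO (horizontal axis), of the tested genes in each apoptosis list, with the 10 genes in the top 3 lines. Filled points had an FDR under 0.05, open points did not, and vertical bars are list medians. The inhibitor of apoptosis list and the p53 list sit mostly left of 0, with medians of -0.28 and -0.25, and Chac1 and Trib3 lie farthest to the right.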

How the data were processed

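Poly(A) RNA libraries were strand-specific. The authors trimmed reads with Trimmomatic, aligned them to mm10 (GRCm38) with STAR (version 2.5.0a in the submitters' processing notes, which also name mm9) and used HTSeq for counting. What they deposited are raw counts of 47069 genes, not normalized. Reads of near-identical copies cannot be separated again, and the mode and strand setting of HTSeq, the read length and the meaning of the 4 runs are not given in the sources used here. The study's methods state that GSI or DMSO was added overnight before activation.

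The 4 runs of each replicate were summed to 4 libraries. Groups were compared by the quasi-likelihood test of edgeR 4.0.16 (R 4.3.3) with filterByExpr defaults, TMM and group as the only factor, and the FDR was adjusted by Benjamini-Hochberg over 13211 genes. Standard errors are the size of the log2 fold change divided by the square root of F. The floor was 3 counts, and floors cover counting error only. Positions and exon lengths came from GENCODE M21, which holds 98.8% of the gene IDs, and promoters from RefSeq. The code was tested on simulated counts.

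The 10 genes and the lists were chosen with earlier results of these data known. From each list, the 3 largest changes with an FDR under 0.05 were named, besides the copies of Bcl2a1b, Hes1 and Hey1. One gene that this rule gives is not reported here. Genes named only in a count of a list or as a marker, or marked so, were chosen after their values were seen. Alternatives were leaving out each library, a block for the replicate number, a minimum of 10 counts in every library or of 1 count in all, RLE factors or none, and DESeq2 1.42.0. Summing the Bcl2a1 copies and repeating every alternative for the other named genes were chosen after seeing the data.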

Additional observations from a re-analysis of the deposited data

How the results depend on the processing

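No direction turned under any alternative for the 10 genes or the 31 other genes followed. Bcl2l11, Bcl2l1 and Bid stayed at an FDR under 0.05 in all alternatives, and Bax and Pmaip1 above it. Fits without 1 library assume that the lone library varies like the other group. They gave 2 lower genes of the 10 (3 with all libraries) and 1 to 5 higher genes (3 with all libraries), the 1 without DMSO replicate 1 and the 5 without GSI replicate 2. In these fits the log2 fold change was 0.35 to 0.70 for Bcl2, -0.21 to -0.16 for Mcl1, 0.057 to 0.25 for Bcl2a1b, 0.070 to 0.29 for Bak1 and 0.24 to 0.53 for Bbc3. DESeq2 gave 0.39 for Bbc3 (adjusted p = 0.0573), and no filter on low counts gave 0.19 for Bak1 (FDR = 0.0447). The summed copies, which were fitted once without further alternatives, gave 0.20 for Bcl2a1b (FDR = 0.0402). Same-numbered libraries deviated together only weakly (r = 0.155 across 13211 genes, which are not independent replicates), and with 2 pairs they share only a number. With the replicate block, 5 of the 10 genes were higher, Bcl2a1b at 0.15 (FDR = 0.0451) and Bak1 at 0.18 (FDR = 0.0171) among them, and the count of all called genes went from 5392 to 6444. Over all genes, 385 passed the stricter rule, 154 with at least 10 counts in every library, which tests fewer genes, and 556 without a filter. Among those other genes, 288 of 310 values kept their side of the threshold, and the 22 exceptions were of Bad, Bcl2a1d, Endog, Fadd, Foxo1, Foxo4 and Xcr1. By list, DESeq2 called 2 further family genes higher (4 in edgeR), 2 transcription factors lower (4) and 1 gene of MCL1 control higher (2). It called 10 genes of the p53 list lower (9 in edgeR). Bcl2 and Bbc3 had the fewest counts of the 10, at 175 to 496 a library. The cause of the changed calls was not tested.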
